A study of Mus musculus with 12 samples.

Results

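The GeneChip miRNA arrays carried, beside probe sets for mature miRNAs, probe sets for the hairpin precursors from which the mature strands are cut. The hairpin probe sets described here were chosen by brightness, as those with a mean log2 value of at least 4 over all 12 arrays, and 83 of 690 mouse hairpin probe sets (12%) met this rule. They read 76 distinct hairpins, some through more than 1 probe set, which the maker named plain, x (may cross-hybridise) or s (shared by several sequences). Their brightness chose them and is therefore given as a description, without a test. RNA came from NIH3T3 cells, an established line of mouse fibroblasts, harvested without treatment (0 h) or after 2, 5 or 10 h in 2 μg/ml tunicamycin (Tm), with 3 arrays per time point. Tm inhibits N-linked glycosylation and causes ER stress, and the arrays were made to find miRNAs that respond to it. All cells were one line grown in medium with serum, with no genetic change named in the labels. No untreated arrays cover 2, 5 or 10 h, so Tm cannot be told apart from time or handling. The labels do not say whether the 3 arrays per time point represent separate cultures, and p-values therefore measure a spread among arrays that could be purely technical.

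A miRNA gene is transcribed as a long primary transcript. Drosha cuts out a hairpin, the pre-miRNA, which Dicer cuts again in the cytoplasm, and 1 strand of the resulting duplex is usually loaded into an Argonaute protein while the other, the star strand, is mostly lost. Precursors are processed quickly and are usually scarce beside the mature strand, and levels of precursor and product can change apart when processing or turnover changes. The RNA was labelled on its 3′ ends after a poly(A) tail was added.

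The hairpins on which the results turned are shown from RefSeq on GRCm38.p6, with the annotated mature arms in capitals. The first 3 belong to the miR-465 family on chromosome X, and their lines show how alike the brightest and a dim family member are. The mir-465c-1 hairpin lies at chrX:66825955-66826035 (minus strand), mir-465b-2 at chrX:66835764-66835842 (minus strand) and mir-465a at chrX:66839052-66839125 (minus strand). The other 5 hairpins are mir-149 at chr1:92850378-92850443, mir-27a at chr8:84208672-84208758, mir-872 at chr4:94665157-94665237, mir-9-3 at chr7:79505264-79505353 and mir-23a at chr8:84208518-84208592, all on the plus strand.
mir-465c-1: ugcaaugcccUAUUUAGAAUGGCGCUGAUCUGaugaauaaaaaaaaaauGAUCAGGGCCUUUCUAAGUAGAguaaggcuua
mir-465b-2: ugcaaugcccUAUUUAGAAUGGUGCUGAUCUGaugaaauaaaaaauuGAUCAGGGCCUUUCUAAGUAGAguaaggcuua
mir-465a: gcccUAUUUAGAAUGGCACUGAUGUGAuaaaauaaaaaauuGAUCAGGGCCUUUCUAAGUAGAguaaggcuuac
mir-149: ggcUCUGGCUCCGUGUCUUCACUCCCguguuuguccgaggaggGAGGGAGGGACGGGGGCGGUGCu
mir-27a: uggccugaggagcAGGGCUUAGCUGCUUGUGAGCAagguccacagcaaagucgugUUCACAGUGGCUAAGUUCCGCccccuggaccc
mir-872: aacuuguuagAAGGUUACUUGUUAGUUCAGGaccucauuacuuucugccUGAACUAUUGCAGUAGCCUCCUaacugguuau
mir-9-3: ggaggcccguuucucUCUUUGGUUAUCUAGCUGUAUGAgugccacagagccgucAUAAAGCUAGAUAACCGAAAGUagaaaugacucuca
mir-23a: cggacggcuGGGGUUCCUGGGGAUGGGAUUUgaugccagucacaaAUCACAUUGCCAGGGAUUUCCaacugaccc

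The mature strands set against these hairpins below follow, with the seed (bases 2 to 8) in capitals, since the seed is the part that pairs with target mRNAs. The arrays used older names, in which miR-27a* is miR-27a-5p, miR-872 is miR-872-5p, miR-9 is miR-9-5p and miR-9* is miR-9-3p. The 3 strands miR-465a-5p, miR-465b-5p and miR-465c-5p share one seed, and the 2 arms of mir-27a carry different ones.
miR-27a-5p: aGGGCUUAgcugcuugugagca
miR-27a-3p: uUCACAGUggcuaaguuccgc
miR-708-5p: aAGGAGCUuacaaucuagcuggg
miR-872-5p: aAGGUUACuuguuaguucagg
miR-9-5p: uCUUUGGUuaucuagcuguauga
miR-9-3p: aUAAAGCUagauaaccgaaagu
miR-149-5p: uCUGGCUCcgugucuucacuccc
miR-465c-5p: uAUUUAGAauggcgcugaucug
miR-465b-5p: uAUUUAGAauggugcugaucug
miR-465a-5p: uAUUUAGAauggcacugauguga

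The arrays were checked on mature markers. All 7 fibroblast probe sets (miR-199a, miR-199b, miR-214, miR-143, miR-145 and miR-21) were above a background limit, defined below, on all 12 arrays, with means between 8.12 and 13.50. Of 7 epithelial probe sets, 4 were below it on every array, among them miR-141 and miR-429. The log2 of their summed values nevertheless lay between 9.64 and 9.77 at 0 h, 6.12 and 6.51 at 2 h, 4.61 and 4.69 at 5 h, 4.58 and 4.81 at 10 h, and miR-205 was at 9.30, 9.16 and 9.18 on the untreated arrays. The part of this shift in the time course of the 83 hairpin probe sets was not tested, and the 8 epithelial hairpin probe sets had means of at most 2.99. No blood or liver probe set was above the limit on all arrays, and of the muscle ones miR-206 was (mean 4.84). The second arrays of 0 h and 5 h deviated from their groups together, with a correlation of deviations of 0.60 over the mature probe sets and 0.39 over the 83. With both left out, a call for mir-27a at 5 h was lost, as given there.

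Most hairpin probe sets gave values near the array background. The median of the 690 means was 2.35, against 3.48 for the 717 mature probe sets, of which 334 (46.6%) had a mean of at least 4. A background limit for each array, its most frequent value plus 3 times the spread below it, lay between 3.31 and 3.48. All 83 hairpin probe sets were above this limit on all 12 arrays, as were 20 hairpin probe sets that the rule left out. Of the 83, 48 had means between 4 and 5, 21 between 5 and 6, 11 between 6 and 8, and 3 at 8 or higher. Just inside the threshold lay mir-677 (4.03), mir-1949 (4.04), the x probe set of mir-465b-2 (4.05) and mir-500 (4.07). Just outside it lay the x probe set of mir-467b (3.97), mir-335 (3.95), mir-1188 (3.92) and the plain probe set of mir-181c (3.87). The median SD between arrays of a time point, pooled over time points, was 0.15 for the 83 and 0.18 for all hairpin probe sets.

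**Figure D1:**
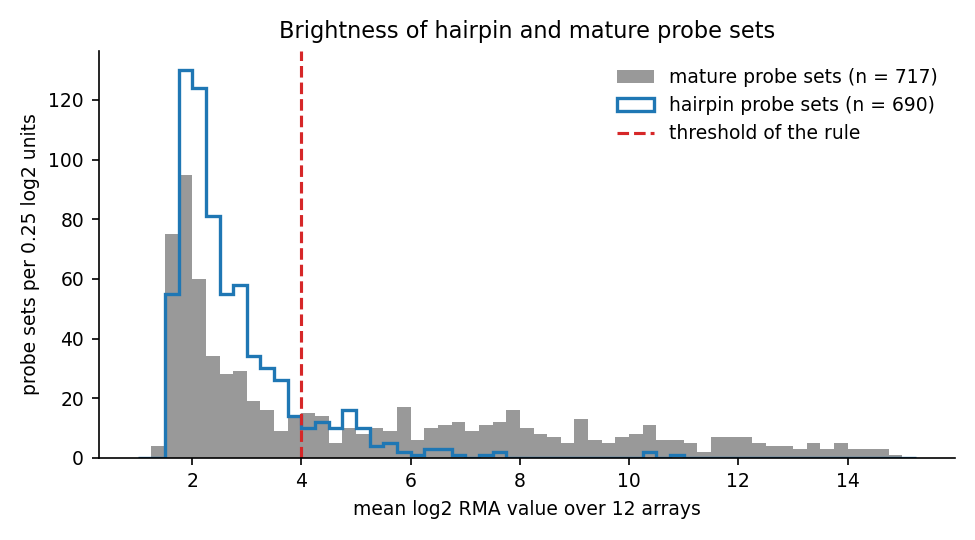
The histogram shows the mean log2 RMA value over 12 arrays (x axis) of 690 hairpin probe sets (line) and 717 mature probe sets (grey), counted in steps of 0.25 (y axis), with the rule's threshold of 4 as a dashed line. Most hairpin probe sets lie below the threshold, and only 3 of them have a mean of 8 or higher.

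The 12 hairpin probe sets with the highest means came from 11 hairpins. The mir-1944 probe set was brightest, with a mean of 10.77 and single arrays between 10.60 and 10.91. Next were the s probe sets of mir-465c-1 (10.40) and mir-465c-2 (10.33), whose RefSeq hairpins are identical over all 81 bases. They cannot be read as separate genes. The x probe set of mir-23a had a mean of 7.67 and its plain probe set 6.69, and the mature miR-23a is a widely expressed product of a cluster with mir-27a. The others were mir-320 (7.52), the x probe set of mir-151 (7.36), mir-1894 (6.89), mir-149 (6.69), mir-183 (6.65), mir-362 (6.36) and mir-99b (6.31). No mean lay between 8 and 10, so mir-1944 and the pair of mir-465c hairpins stood apart from the rest.

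All 83 probe sets had at least 1 mature probe set of the same name, in 132 pairs with 110 mature probe sets. The probes differ in sequence and in how well they bind, so the values are set side by side and do not compare amounts of precursor and product. In 67 of 83 cases the hairpin probe set was dimmer than its brightest mature probe set, with a median difference of −4.28 over the 83. The median of the brightest mature partners was 9.72, against 3.89 for the partners of the 607 hairpin probe sets below the threshold. Of the 200 hairpin probe sets with a mature partner at 8 or higher, 51 met the rule, so a bright mature miRNA often had no bright hairpin signal. Spearman's rho between hairpin and brightest mature value was 0.28 over the 83 and 0.38 over all 690, where probe sets of 1 hairpin or family share partners and sequence.

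The 8 probe sets furthest below their mature partner belonged to miRNAs with some of the brightest mature signals. The mir-23b x probe set had a mean of 4.25 and miR-23b 14.10, the widest gap of the 83. For mir-31, a miRNA studied in cell migration, the hairpin mean was 4.89 and the mature mean 14.41. The mir-125b-1 x probe set had 5.48 and miR-125b-5p 14.57, and the mir-199a-1 x probe set, a member of a mesenchymal miRNA family, 5.02 against 13.49 for miR-199a-3p. The plain mir-27a probe set had 4.82 and miR-27a 13.17. Both mir-106a probe sets (4.32 and 4.30) and the plain mir-23a probe set were likewise far below miR-106a (12.39) and miR-23a (14.67).

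The opposite order was seen in 16 probe sets, and for 11 of these the mature partners were below the background limit on all 12 arrays. The mir-465c-1 and mir-465c-2 hairpins lay furthest above, at 10.40 and 10.33, with miR-465c-3p at 2.43 and miR-465c-5p at 2.08. The hairpins mir-703 (4.85), mir-1194 (5.10), mir-692-1 (4.66), mir-692-2 (4.23), mir-677 (4.03) and mir-465a (4.76) followed, with their brightest mature partners between 1.64 and 2.50. The mature partners of mir-496, mir-682, mir-3470b and mir-452 were above the limit on 1, 3, 1 and 7 arrays. Only miR-1944 was above it on all 12, at 10.21 against 10.77 for its hairpin.

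**Figure D2:**
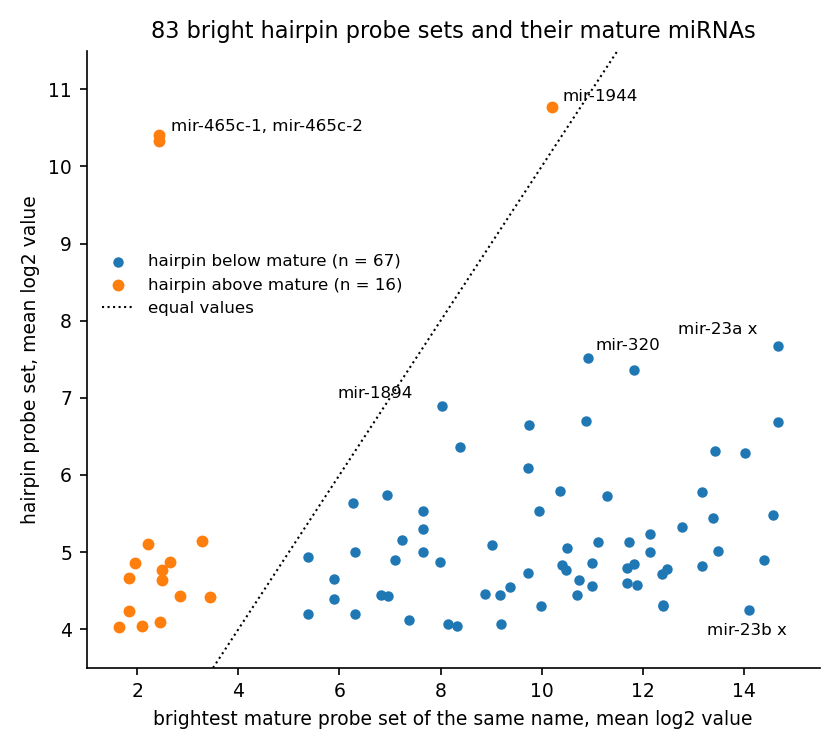
Each point is 1 of the 83 hairpin probe sets, with its mean log2 value over 12 arrays on the y axis and that of its brightest mature probe set of the same name on the x axis. The dotted line marks equal values: 67 points lie below it, and mir-465c-1 and mir-465c-2 stand alone at the upper left, with mature values of 2.43.

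The miR-465 genes form an X-linked cluster described in mouse testis, and 5 of their 9 hairpin probe sets met the rule. The mir-465c-1 values were 10.34, 10.34 and 10.36 at 0 h, 10.52, 10.36 and 10.18 at 2 h, 10.29, 10.24 and 10.40 at 5 h, then 10.54, 10.71 and 10.56 at 10 h. All 3 arrays at 10 h were above those at 0 h, but the change of 0.25 (standard error, SE, 0.08) did not pass the test (limma, adjusted p = 0.30). The plain mir-465a probe set had values between 4.50 and 5.24, and the x probe set of mir-465b-2 between 3.74 and 4.38. The remaining 4 family probe sets stayed between 1.37 and 2.39 on every array, among them the s probe sets of mir-465a (mean 1.61) and mir-465b-2 (1.91).

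Probe sets for a single hairpin thus gave values on both sides of the background. The mir-465b-1 and mir-465b-2 hairpins are identical over all 79 bases, yet their x probe sets had means of 1.65 and 4.05. None of these values can be read as the level of 1 hairpin. The 81 bases of mir-465c-1 are 93.8% identical to mir-465b-2 in a global alignment, and 84.1% identical to mir-465a. The longest run of A is 10 bases in the loop of mir-465c-1 and 6 in those of mir-465a and mir-465b-2. Whether this run bears on the signal was not tested.

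**Figure D3:**
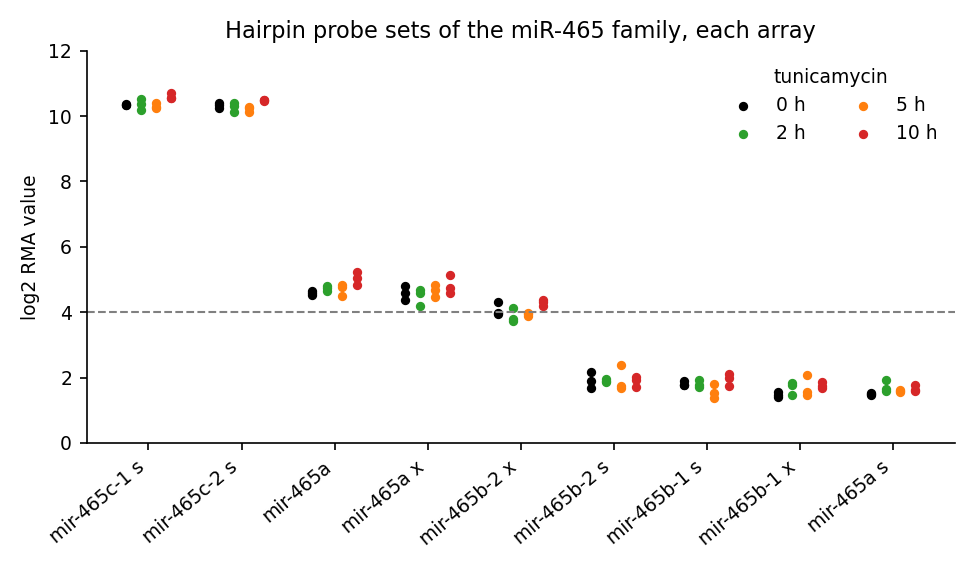
Log2 RMA values (y axis) of the 9 hairpin probe sets of the miR-465 family (x axis), 1 point per array and 3 arrays per time point, coloured by hours in tunicamycin; the dashed line is the threshold of 4. The mir-465c probe sets lie above 10 on every array, and 4 probe sets lie below 2.5.

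Where a hairpin had a bright probe set, its other probe set often disagreed. Among 130 hairpins with more than 1 probe set, all met the rule in 6 and only 1 did in 16. Of the 3 for mir-465a, the plain and the x probe set met it. In most of the 130, no probe set did. The x probe set of mir-19b-1 had a mean of 5.00 and the plain one 1.83, the largest gap in favour of x. For mir-27b the order was opposite, with 4.79 for plain and 2.14 for x. Of plain probe sets 10.6% met the rule, of x probe sets 16.9% and of s probe sets 12%.

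Hairpins that neighbour each other in the genome, and may share a primary transcript, differed widely. In the cluster of mir-23a, mir-27a and mir-24-2, the probe set means were 7.67 and 6.69 for mir-23a, 5.78 and 4.82 for mir-27a, but 2.24 and 2.00 for mir-24-2, although miR-24 was at 14.34. In the sensory-organ cluster, mir-183 (6.65) and mir-182 (5.13) met the rule and mir-96 (1.95) did not. The mir-99b hairpin had 6.31 beside 2.71 for its neighbour let-7e and 2.27 for mir-125a, and the mature strands of these neighbours were at 13.60 and 13.79. Among the hairpins of the oncogenic miR-17 cluster, only the x probe set of mir-19b-1 met the rule, and the mir-17 hairpin had 3.02 beside 13.28 for miR-17. In the X-linked cluster of mir-362, the hairpins mir-362 (6.36), mir-188 (4.65) and mir-500 (4.07) met it, and mir-501 (2.99) and mir-532 (2.44) did not. In all, 20 groups of hairpins, each within 10 kb of the next on 1 strand, held 39 of the 83 probe sets.

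By family, the rule took 6 of 12 probe sets of miR-23, miR-27 and miR-24, 4 of 21 of the miR-17 clusters (mir-93, mir-19b-1 and both of mir-106a), and 8 of 64 of the families in the Sfmbt2 intron (miR-297, miR-466, miR-467 and miR-669). It took 1 of 10 of miR-30 and 1 of 9 of the miR-322 and miR-503 group (mir-351, at 5.53). Hairpins with 4-digit numbers, named later than the others, gave 11 of 121, among them mir-1944. None was taken of let-7 (18 probe sets), miR-15 and miR-16 (8), miR-29 (6), the repeat or tRNA related names (14), the epithelial list (8) or the miR-216 and miR-217 cluster (3). The let-7 hairpins, whose processing LIN28 blocks, had a median of 2.84 and at most 3.75.

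A further list held hairpins of miRNAs linked to ER stress, of the miR-216b cluster and of the epithelial miR-205 and miR-200c. Only mir-125b-1 (x probe set, 5.48), mir-708 (plain probe set, 4.76) and mir-93 (4.72) met the rule. The plain probe set of mir-125b-1 had a mean of 3.03. The hairpin of miR-216b, the miRNA that the study followed, had a mean of 3.23. It was above the background limit on 4 of 12 arrays, all of them treated. Its values at 0 h were 3.02, 2.92 and 2.98. Its changes were 0.40 at 2 h (95% interval 0.05 to 0.74) and 0.44 at 10 h (0.09 to 0.78). Neither passed in limma (adjusted p = 0.71 and 0.48). The hairpins mir-217 (2.47), mir-216a (2.15), mir-211 (1.76), mir-205 (2.21), mir-200c (1.86), mir-34a (2.57), mir-17 (3.02), mir-96 (1.95) and mir-25 (2.04) were above the limit on none. The mir-204 x probe set (3.79) was above it on all 12 arrays without meeting the rule, and mir-106b (3.61) on 10. No member of this list passed the test at any time point, and mir-217, the hairpin with the largest change, was 0.57 (95% interval 0.21 to 0.93) higher at 10 h with an adjusted p of 0.30 in limma.

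The time course was tested with limma over all 690 hairpin probe sets, with all 12 arrays in 1 fit and Benjamini-Hochberg adjustment at 0.05. With 3 arrays against 3, an exact permutation test cannot go below p = 0.1, so calls rest on the pooled spread. None of the 83 rose or fell at 2, 5 or 10 h. The share called over all 690 was 0% in each direction at each time (percent called 0). Before adjustment, 9, 9 and 12 of the 83 had p under 0.05 at 2, 5 and 10 h (10.8%, 10.8% and 14.5%), against 6.23%, 6.52% and 7.54% of the 690. The methods' t-test, run per probe set on the same values, gave 8, 4 and 10 of the 83 before adjustment and 0 after it. Over all 690 it gave 40, 43 and 39 before adjustment and 0 after it.

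No fitted change of the 83 reached 2-fold. All 95% intervals, each taken for 1 probe set and 1 time with no adjustment for their number and resting on the spread among these arrays, lay within a 2-fold change at each time point, and 75, 69 and 69 of them lay within 1.5-fold. Over the 83 the median log2 changes at these times were 0.08, 0.03 and 0.05, beside 0.02 for all hairpin probe sets at each time, and the largest single changes at 10 h were −0.48 and 0.56. Of their 110 mature partners, in contrast, 18 rose and 11 fell at 2 h in the fit over 717 mature probe sets, of which 7.39% rose and 5.86% fell. At 5 h, 9 of the 110 rose and 9 fell, against 4.32% and 4.04% of the 717. At 10 h, 17 rose and 16 fell, against 5.58% and 7.11%. These counts do not by themselves show that hairpin and mature changes differ, which was tested per pair below.

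The 12 probe sets with an unadjusted p under 0.05 at 10 h are given by value, since none passed the test. Higher values were read for the mir-9-3 x probe set (0.56), the plain mir-465a probe set (0.45), mir-455 (0.37), the mir-466b-1 x probe set (0.36), mir-346 (0.34), the plain mir-23a probe set (0.31), mir-465c-1 (0.25), mir-1944 (0.23), the mir-151 x probe set (0.19) and mir-465c-2 (0.16). Lower values were read for mir-149 (−0.48) and mir-682 (−0.34). The other probe sets of these hairpins that met the rule had changes of 0.05 for the mir-23a x, 0.24 for the mir-465a x, 0.17 for the plain mir-151 and 0.20 for the plain mir-9-3 probe set, each with an unadjusted p above 0.05. The adjusted p of the 12 in limma lay between 0.27 and 0.62. At 10 h the values of 21.7% of the 83 did not overlap those at 0 h, against 13.0% of all 690, with 0% called in either set. The shares were 15.7% against 11.7% at 2 h and 9.6% against 12.6% at 5 h.

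**Figure D4:**
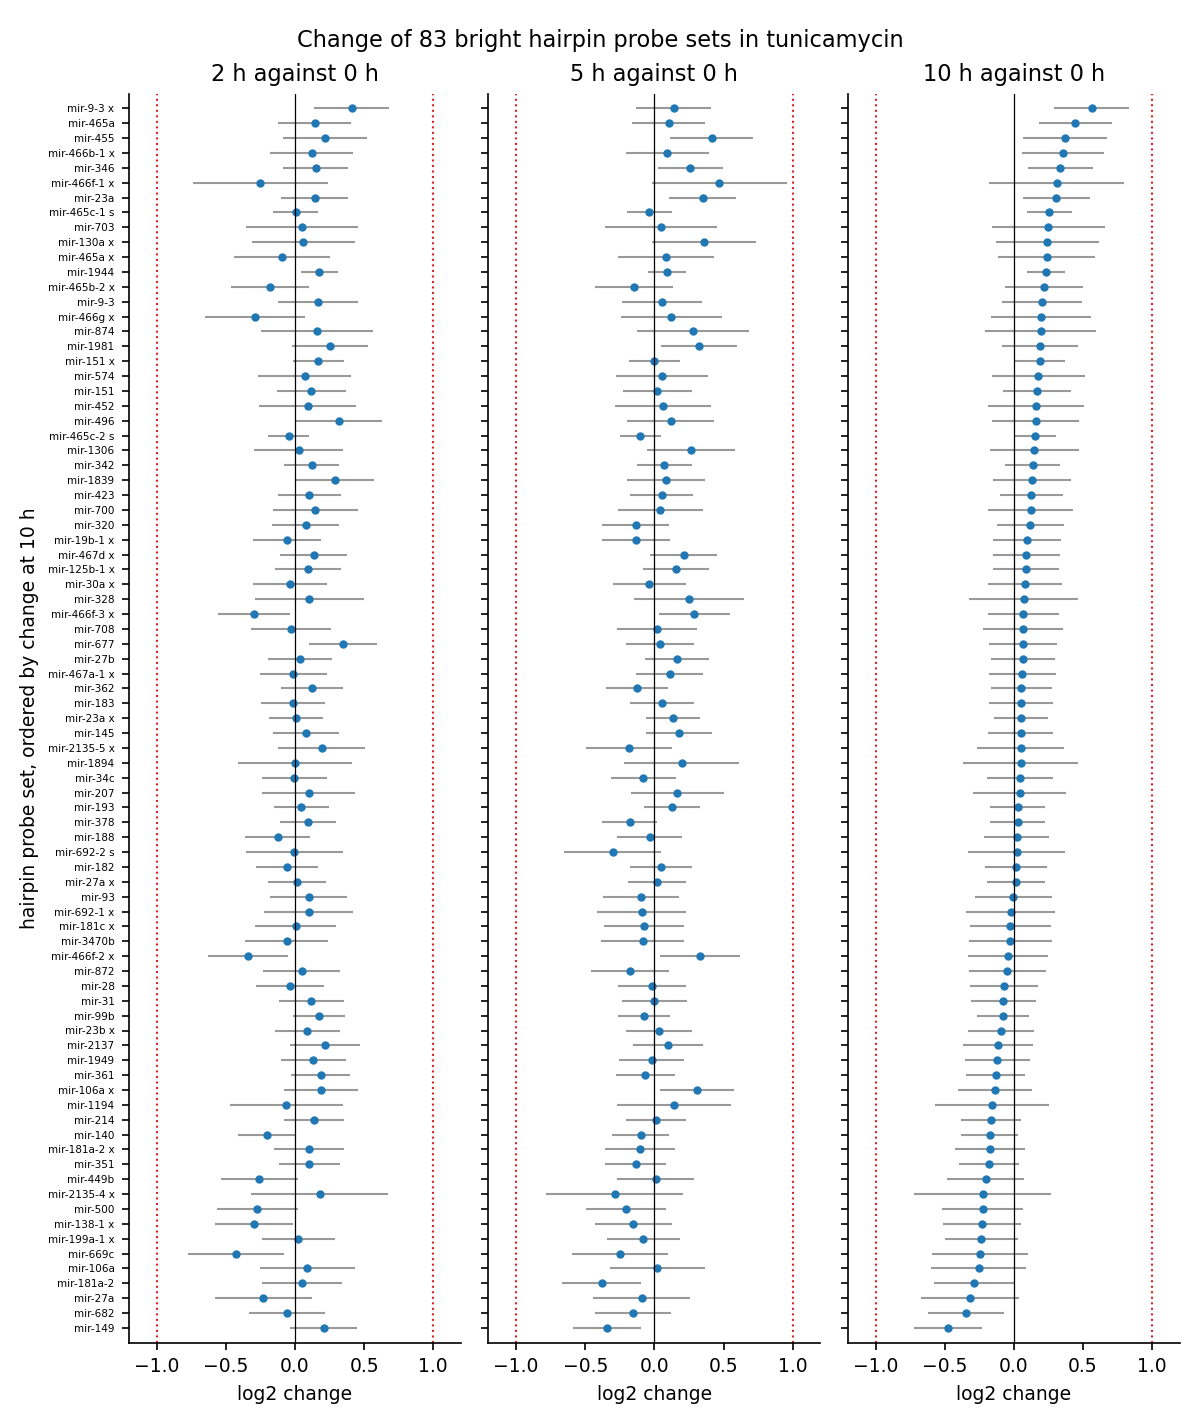
Log2 change (x axis) of each of the 83 hairpin probe sets (y axis, ordered by the change at 10 h) at 2, 5 and 10 h against 0 h, with 95% intervals from limma (lines), n = 3 arrays per time point. Dotted lines mark 2-fold changes in either direction, and no interval reaches them.

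One hairpin passed the test of any change over time, mir-149, in a fit where 0.145% of the 690 were called. The mature miR-149 comes from the 5′ arm and has been studied in tumour cells. The hairpin values were 6.92, 6.86 and 6.76 at 0 h, 7.08, 6.97 and 7.12 at 2 h, 6.40, 6.65 and 6.48 at 5 h, then 6.22, 6.66 and 6.23 at 10 h. All arrays at 2 h were above those at 0 h, and all arrays at 5 h and 10 h were below them. The changes from 0 h were 0.21, −0.34 and −0.48 (SE 0.12 each), with limma adjusted p = 0.049 over the time course and 0.27 at 10 h. This call was lost when any array but the second at 0 h, 5 h or 10 h was left out, and the adjusted p over the 12 omissions ran from 0.0024 to 0.258. It was also lost with quantile normalization or without a trend of the prior variance. Without the second 10 h array, mir-149 also passed at 10 h (−0.62, adjusted p = 0.017).

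Between the treated times, 3 of the 83 differed between 2 h and 5 h (0.58% of the 690 did), 1 between 2 h and 10 h (0.29%) and 0 between 5 h and 10 h (0%). These were mir-149 in both and the x probe sets of mir-466f-2 and mir-466f-3 in the first, higher at 5 h by 0.67 and 0.58 on the log2 scale (limma, adjusted p = 0.037 each). Each of these calls was lost on omitting some single array. The mir-466f-2 and mir-466f-3 x probe sets read copies of 1 miRNA, may cross-hybridise and share their mature partners. They are therefore not separate results.

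The mature strand of mir-149 moved in the same order. MiR-149 had values of 11.05, 10.92 and 10.99 at 0 h, 11.21, 11.16 and 11.23 at 2 h, 10.73, 10.81 and 10.56 at 5 h, then 10.59, 10.60 and 10.63 at 10 h. Its changes were 0.21, −0.29 and −0.38, all past the test. The hairpin change minus the mature change at 10 h was −0.09, with a 95% interval from −0.42 to 0.23.

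The mir-1944 hairpin and its mature strand also lay close in their changes. The hairpin values were 10.60, 10.72 and 10.62 at 0 h, 10.80, 10.91 and 10.75 at 2 h, 10.60, 10.81 and 10.79 at 5 h, then 10.85, 10.91 and 10.87 at 10 h. The arrays at 2 h and 10 h were all above those at 0 h, and those at 5 h overlapped them. The change at 10 h was 0.23 (SE 0.06, adjusted p = 0.27 in limma), that of miR-1944 was 0.28 (adjusted p = 0.0073), and the difference of −0.05 had an interval from −0.38 to 0.29. When all probe sets were fitted together, mir-1944 passed at 10 h (adjusted p = 0.048), as did mir-149 (0.042) and the mir-9-3 x probe set (0.031).

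Whether a hairpin and its mature strand changed by different amounts was tested on the per-array difference of their log2 values, over all 989 pairs of the array. At 2 h, 0 of the 132 pairs with a bright hairpin passed in limma (0.91% of the 989 did). At 5 h, 2 of the 132 passed, against 1.01% of all pairs. At 10 h, 6 passed, against 1.62%. These included the mir-9-3 x probe set with miR-9* and with miR-9, and the plain mir-9-3 probe set with miR-9. Pairs of 1 hairpin are not separate cases. The mir-9-3 x probe set met the brightness rule through its later arrays, so its place in this count was not independent of its rise. Of the pairs whose mature strand was called on its own, 0 of 37 at 2 h, 2 of 21 at 5 h and 4 of 38 at 10 h passed this test of the difference. The methods' t-test gave 1 pair at 5 h and 0 at 10 h after adjustment, and a fit of only the time points compared gave 0 and 2 (mir-708 with miR-708, and the mir-9-3 x probe set with miR-9*).

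The star strand of mir-27a parted from its hairpin at 5 h. The x probe set of the hairpin had 5.73, 5.71 and 5.87 at 0 h, 5.69, 5.77 and 5.90 at 2 h, 5.83, 5.88 and 5.66 at 5 h, then 5.78, 5.79 and 5.79 at 10 h. The plain one had 5.28, 4.81 and 4.84 at 0 h, 4.81, 4.38 and 5.04 at 2 h, 4.90, 4.79 and 4.96 at 5 h, then 4.79, 4.77 and 4.42 at 10 h. MiR-27a* had 8.01, 8.03 and 8.21 at 0 h, 8.18, 8.08 and 8.23 at 2 h, 9.06, 9.04 and 8.88 at 5 h, then 8.70, 8.57 and 8.71 at 10 h. The arrays of both hairpin probe sets overlapped between 0 h and 5 h, and the star strand rose on all 3 arrays, by 0.91 at 5 h and 0.58 at 10 h. The hairpin minus mature change at 5 h was −0.89 (SE 0.13, adjusted p = 0.0028) for the x probe set and −1.0 (SE 0.20, adjusted p = 0.029) for the plain one (limma).

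These 5 h calls differed in how far they rested on single arrays. That of the x probe set held without each array in turn (adjusted p between 0.0048 and 0.019) and was lost with only the 0 h and 5 h arrays in the fit (0.056). That of the plain probe set was lost without the first 0 h, first 5 h, second 5 h or first 10 h array (adjusted p from 0.0505 to 0.118), and without both second arrays of 0 h and 5 h (0.145). At 10 h the plain probe set passed again, at −0.90 (SE 0.20, adjusted p = 0.046), and lost the call without any array but the second at 0 h and the second at 2 h (0.0505 to 0.199). The guide strand, miR-27a, which restrains adipocyte differentiation, changed by 0.06 at 5 h, and its difference from the x probe set was −0.05 (interval −0.27 to 0.18). Whether the arms differ from each other was not tested.

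The miR-708 strand rose at 10 h without a called change of its hairpin. The miR-708 gene lies in an intron of Odz4 and has been linked to CHOP. Its hairpin had 4.79, 4.58 and 4.88 at 0 h, 4.47, 4.72 and 4.97 at 2 h, 4.76, 4.72 and 4.82 at 5 h, then 4.76, 5.02 and 4.67 at 10 h. MiR-708 had 10.10, 10.09 and 10.11 at 0 h, 10.32, 10.20 and 10.30 at 2 h, 10.36, 10.44 and 10.26 at 5 h, then 11.07, 11.20 and 11.23 at 10 h. The hairpin arrays overlapped, whereas every mature array at 10 h was above every earlier one. The mature change was 1.07 (SE 0.06) and the hairpin change 0.07 (interval −0.22 to 0.36), and their difference was −1.0 (SE 0.16, adjusted p = 0.0046 in limma). The call held without each array in turn (0.0036 to 0.036), and was lost, among the settings tried, only with the methods' t-test (0.146). A second, dimmer hairpin probe set for mir-708, x, did not meet the rule (mean 2.95) and was above the background limit on no array. Its change at 10 h was 0.27 (interval −0.05 to 0.59, adjusted p = 0.70 in limma).

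In mir-872 the mature strand fell. The hairpin had 4.68, 4.48 and 4.36 at 0 h, 4.53, 4.39 and 4.75 at 2 h, 4.36, 4.47 and 4.16 at 5 h, then 4.57, 4.48 and 4.33 at 10 h. MiR-872 had 6.51, 6.44 and 6.38 at 0 h, 6.28, 6.21 and 5.98 at 2 h, 6.08, 6.11 and 6.41 at 5 h, then 5.61, 5.52 and 5.10 at 10 h. Between 0 h and 10 h the hairpin values overlapped and the mature values did not. The change was −0.05 for the hairpin and −1.03 for miR-872, and the difference of 0.98 (SE 0.21, adjusted p = 0.032) was lost on leaving out any single 0 h or 10 h array (0.061 to 0.142). The brighter arm, miR-872*, changed by −0.14 at 10 h and did not differ from the hairpin past the test (difference 0.09, interval −0.25 to 0.43).

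The mir-9-3 hairpin is 1 of several loci of miR-9, a miRNA of the nervous system, and the mature probe sets cannot tell these loci apart. Its x probe set had 3.89, 3.98 and 3.90 at 0 h, 4.26, 4.53 and 4.21 at 2 h, 4.18, 4.05 and 3.96 at 5 h, then 4.35, 4.70 and 4.42 at 10 h. The plain probe set had 4.92, 4.62 and 5.12 at 0 h, 5.20, 4.97 and 5.01 at 2 h, 4.80, 4.96 and 5.08 at 5 h, then 5.18, 5.20 and 4.90 at 10 h. The hairpin x arrays at 2 h and 10 h were all above those at 0 h, and the plain ones overlapped. MiR-9* had 6.55, 6.91 and 6.51 at 0 h, 6.35, 6.42 and 6.60 at 2 h, 5.94, 5.76 and 6.37 at 5 h, then 6.22, 6.12 and 6.02 at 10 h. MiR-9 had 4.49, 3.59 and 4.11 at 0 h, 4.11, 3.5 and 3.71 at 2 h, 3.82, 3.79 and 4.05 at 5 h, then 3.06, 3.51 and 3.18 at 10 h, and was above the background limit on 10 of 12 arrays. Both mature strands were lower on every 10 h array than on every 0 h array.

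The hairpin x probe set changed by 0.56 at 10 h (SE 0.13, adjusted p = 0.27), the lowest unadjusted p of the 83 at that time (0.00042). All its 0 h arrays lay below the threshold of 4, and it met the rule through the later arrays. Its choice by brightness was therefore not independent of its rise. In limma, the difference from miR-9* was 1.10 (SE 0.22, adjusted p = 0.018) and from miR-9 1.37 (SE 0.27, adjusted p = 0.018). The plain probe set, whose own change was 0.20, differed from miR-9 by 1.01 (SE 0.21, adjusted p = 0.023). All 3 calls were lost without any one of 4 arrays, the first and the last at 0 h and the second and the last at 10 h, and those with miR-9 also without the first at 10 h (0.053 to 0.119).

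**Figure D5:**
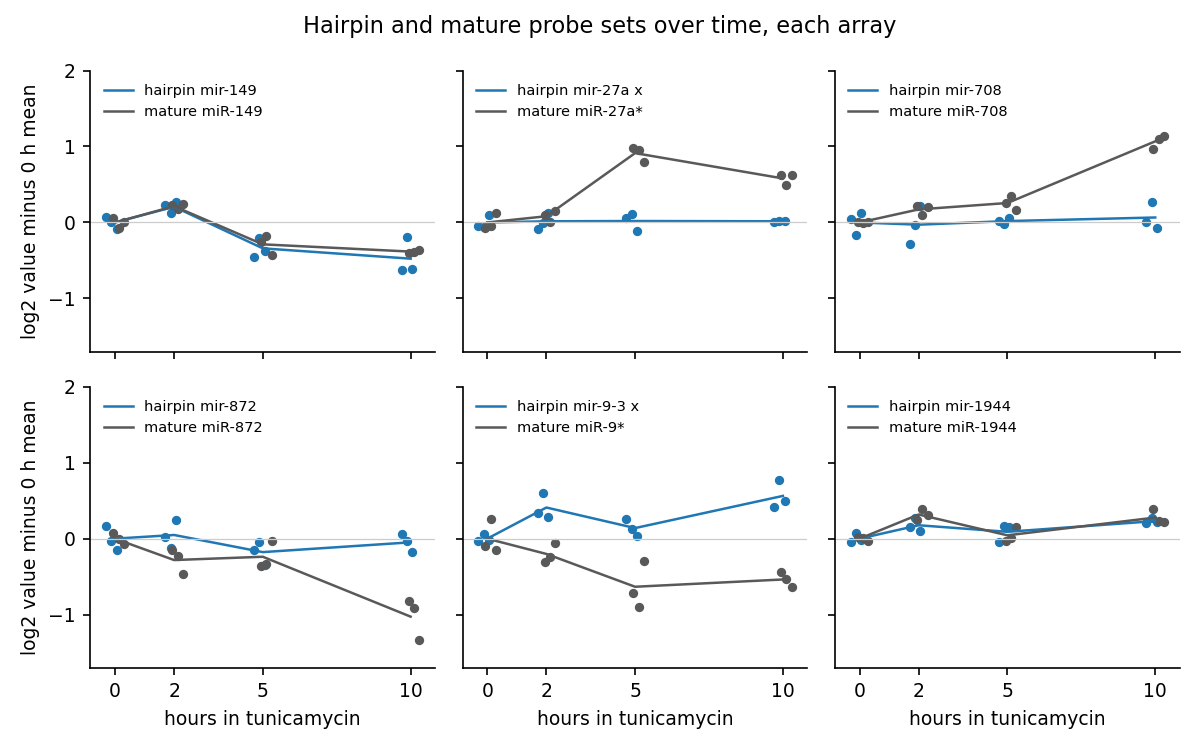
Log2 value minus the mean of the 0 h arrays (y axis) against hours in tunicamycin (x axis) for 6 hairpin probe sets (blue) and a mature probe set of the same name (grey), with 1 point per array, 3 arrays per time point, and lines through the means. Hairpin and mature values lie together for mir-149 and mir-1944, and apart for mir-27a at 5 h and for mir-708, mir-872 and mir-9-3 at 10 h. The hairpin means were 6.69 for mir-149 and 10.77 for mir-1944. They were 5.78 for mir-27a x, 4.76 for mir-708, 4.46 for mir-872 and 4.20 for mir-9-3 x. Whether brightness bears on the changes was not tested.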

How the data were processed

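Biotin-labelled RNA of 12 samples was read on GeneChip miRNA arrays. For 1412 mouse probe sets the authors deposited 1 log2 value per array, computed by RMA according to the submitters' processing notes. A second table by the authors held identical values (largest difference 0), and its columns of the authors' comparisons, fold changes and p-values, were not used. For the array version, the RMA version and the build behind the array annotation: not given in the sources used here. Probe sequences were not used, and 5 probe sets under older annotation names were left out.

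All samples were grouped by their labels. No further normalization was applied. Hairpin probe sets (690), mature probe sets (717) and the 989 pairs of equal name were each fitted with limma 3.58.1 in R 4.3.3, with the 4 time points as groups and a trend of the prior variance. Contrasts with 0 h and between later times and the moderated F test were two-sided with Benjamini-Hochberg adjustment at 0.05. Hairpins with a copy number were matched to the name without it. The background limit of each array (the most frequent value and 3 spreads above it) is a choice made with the values in view. The number of arrays limits the precision, with a median SE of 0.13 for a change of the 83 probe sets.

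The probe sets and lists were chosen with earlier results of these data known. Named were the 12 brightest, those furthest from their mature partner, called probe sets and pairs, and those nearest the threshold. Hairpins of ER stress miRNAs, of the miR-216b cluster and of miR-205 and miR-200c were named too. Those described in clusters, in families, in pairs of probe sets and by unadjusted p were chosen after their values were seen. The clusters used a distance of at most 10 kb between successive hairpins in the array annotation. RefSeq held hairpin sequences for 49 of the 76 hairpins (64.5%), so no sequence property was compared over all of them. Alternatives were another scaling, fits restricted to bright probe sets or extended to all of them, other prior variances, weights per array, the t-test that the methods name, fewer time points, a replicate block and the omission of each array.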

Additional observations from a re-analysis of the deposited data

Results flagged for a closer look

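Among the 83 hairpin probe sets, 4 changes between treated time points passed limma's test over 690 hairpin probe sets, which marks a change from 0 h that differed between times. The mir-149 hairpin was lower at 5 h than at 2 h (difference −0.55, adjusted p = 0.037), and lower at 10 h than at 2 h (−0.68, adjusted p = 0.014). The latter call was lost without the first or the last array of 2 h or of 10 h (0.087 to 0.137). The former was lost without any array but the second at 0 h and the second at 10 h (0.0506 to 0.253), with the arrays shifted to 1 median (0.063) or quantile normalized (0.071), and without the variance trend (0.145).

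The x probe sets of mir-466f-2 and mir-466f-3, hairpins of the Sfmbt2 intron, were higher at 5 h than at 2 h, by 0.67 and 0.58 (limma, adjusted p = 0.037 each). They share their mature partners and are not separate results. The mir-466f-2 values were 5.38, 5.81 and 5.43 at 0 h, 5.23, 5.20 and 5.18 at 2 h, 5.69, 5.87 and 6.05 at 5 h, then 5.29, 5.72 and 5.50 at 10 h. All 5 h arrays were above all 2 h arrays. On omitting 1 array, the mir-466f-2 call held without the second or last 0 h or the second 10 h array, and the mir-466f-3 call without the second or last 0 h array. Both were lost without any other, with adjusted p up to 0.214 and 0.279. Both were lost with quantile normalization (0.0506 and 0.071) and without the variance trend (0.0925). MiR-466f-3p, the brightest mature partner, had 7.52, 8.56 and 7.22 at 0 h, 6.73, 6.64 and 6.69 at 2 h, then 8.08, 8.56 and 8.02 at 5 h, so it too was lowest at 2 h. With the second 0 h and second 5 h arrays both left out, the mir-466f-3 difference was 0.52 (adjusted p = 0.069).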

How the results depend on the processing

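The number of probe sets meeting the rule was 123 at a threshold of 3.5, 35 at a threshold of 5 and between 82 and 83 without any single array. No result reversed, and the counts of hairpins called at 2 h and 5 h were 0 in all alternatives. At 10 h, 2 hairpins passed when only probe sets with a mean of at least 4 were fitted, 3 when all probe sets shared a fit, and 0 to 1 without single arrays (mir-149 without the second 10 h array, adjusted p = 0.017). Over time, 0 passed with quantile normalization or without the variance trend, 4 with a mean of at least 4 (mir-149, mir-466f-2, mir-466f-3 and mir-9-3), and 0 to 1 without single arrays. Differences between later times, an alternative set added after the data were seen, numbered 1 with quantile normalization and 1 without the trend, and 0 to 4 without single arrays. Pairs differing at 2 h numbered 1 with quantile normalization and 1 with a mean of at least 4, in both cases mir-34c. Pairs differing at 5 h numbered 4 with a mean of at least 4, 1 with the methods' t-test, 0 with only the time points compared, 1 with both second arrays of 0 h and 5 h left out, and 1 to 3 without single arrays. Pairs differing at 10 h numbered 10, 0 and 2 with the first 3 of these, and 1 to 6 without single arrays. The fitted filter changes which probe sets are adjusted for. Otherwise the cause was not tested. Same-numbered arrays deviated with correlations from −0.11 to 0.40, of which 4 of 18 exceeded 0.1. Between 0 h and 5 h they were 0.18, 0.40 and 0.13 for replicates 1, 2 and 3. Between all other time points they lay from −0.11 to 0.101. Arrays with different numbers were not compared, so whether the numbers pair the arrays was not tested. With the replicate block, mir-27a with miR-27a* at 10 h (−0.90) and mir-872 (0.98) missed the threshold (adjusted p = 0.059 each).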
